A study of Mus musculus with 441 samples.

Results

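The series profiled single mouse cells by RNA-seq, and 54 of its 415 cells carry the label of neural precursor cells (NPCs). All 54 were taken by that label, and no measured value chose them. They were derived in culture from v6.5 mouse embryonic stem cells (mESCs), by growth in ITSFn medium and then in N2 medium with bFGF on laminin, and the study describes them as nestin-positive. The other cells, used here for comparison only, were v6.5 mESCs in serum+LIF from separate plates of 90 and 93 cells, v6.5 mESCs in 2i+LIF (94 cells), and Dgcr8 -/- mESCs of v6.5 background in serum+LIF (84 cells), which lack mature microRNAs.

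The labels name no separate cultures for the 54 NPC-labelled cells. Their names give a well but no plate or microfluidic C1 chip, and no well repeats. The cells were therefore counted as 1 sample and are not replicates of a condition. Shares of cells are given with exact (Clopper-Pearson) 95% binomial intervals that cover counting error only, correlations over cells are descriptions, and no test was made. Levels are in TPM, a share of transcripts scaled for gene length, and a gene was counted in a cell at a TPM of 10 or more. A cell held between 5476 and 9662 genes at a TPM of 1 or more, with a median of 7353. Genes detected stand in for sequencing depth, which is unknown because TPM keeps none.

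Neural precursors of the embryonic brain divide, carry the intermediate filaments nestin and vimentin, and keep Sox-family factors and Notch signalling active while neuronal and glial genes stay low. The lens comes from surface ectoderm beside the forebrain. Pax6 and Six3 act in both tissues, whereas Maf and Prox1 drive crystallin genes in the lens. Lens epithelial cells divide and carry α-crystallins, and they leave the cell cycle as they turn into fibre cells, which add β- and γ-crystallins, connexins and membrane proteins such as Mip and Lim2. Mesenchymal cells are known by collagens, matricellular proteins and factors such as Prrx1 and Twist1.

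The label held in part. Vim passed a TPM of 10 in all 54 cells, but Nes passed it in 25 cells (46.3%, 32.6 to 60.4%) and a TPM of 1 in 49, and the most abundant lineage genes were lens crystallins. Genes of neural precursors, lens, mesenchyme and the cell cycle lay side by side in most cells, and 42 of 54 cells carried all of these programmes at the numbers of genes set out below. All 54 cells met the neural and mesenchymal numbers, so this is the count of cells with crystallins and cell cycle genes. Nearly all mESCs also met the mesenchymal and cell cycle numbers. The neural number was met by 73 of 94 mESCs in 2i and 77 of 84 Dgcr8 -/- mESCs, but by 6 of 90 and 2 of 93 on the serum plates. The cells are therefore called NPC-labelled cells and given no other cell type name.

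A group of 4 cells (wells C9, D11, E12 and E3) stood apart. They carried 10, 13, 11 and 12 of the 14 measured pluripotency genes, whereas the next cell carried 5 and the median of the other 50 was 1. Dppa5a, a gene of early embryo and stem cells, was at 3114, 7923, 7645 and 4491 TPM in these 4 cells, and at 0 in 33 of the 54 cells. Single pluripotency genes did not set the group apart cleanly. Among the other 50, wells G9, D3 and C3 held Dppa5a at 1054, 768.4 and 672.4 TPM. The pluripotency gene Pou5f1 was highest in C3 (409.7 TPM) and at 10.9 TPM in C9. Cryaa in the 4 cells was 556.9, 150.4, 320.1 and 74.9 TPM, against a median of 3021 TPM in the other 50. Vim in the 4 cells was 485.5, 85.3, 58.2 and 60.5 TPM against 1071 TPM. Cryaa and Vim were thus below that median in all 4, and at 0 in none. Well C9 was not low throughout, with Maf at 111.8 TPM against a median of 139.9 and Six3 at 65.2 TPM against 34.2. They carried 31 to 37 of the 47 G1/S genes and 34 to 46 of the 52 G2/M genes, and 2 of them held at least 3 epithelial genes. The main counts and correlations are therefore also given for the other 50 cells, and rankings of genes use all 54. No doublet caller was run.

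Cryaa and Cryab, the α-crystallins, are small heat shock proteins that make up much of the lens and keep other proteins soluble. Cryaa ran from 31.3 TPM in the lowest cell through a median of 2150 TPM to 48274 TPM in the highest. Cryab ran from 35.5 through 1813 to 20916 TPM. Both passed a TPM of 10 in all 54 cells, yet Cryaa spanned more than 3 orders of magnitude between wells. Its mean of 7078 TPM lay well above its median, so the highest wells weighed heavily in the total. On the serum mESC plate of 93 cells, Cryaa passed a TPM of 10 in 21 cells, with a maximum of 60.3 TPM. NPC-labelled wells A8 (31.3 TPM), C8 (35.6 TPM), H11 (37.5 TPM) and F3 (57.9 TPM) lay below that maximum. The β-crystallins, structural proteins of the lens, were present in part of the cells. Cryba1 passed a TPM of 10 in 36 cells (66.7%, 52.5 to 78.9%), with a median of 95.1 and a maximum of 3926 TPM, and was at 0 in 8. Crybb3 passed it in 38 cells (70.4%, 56.4 to 82.02%), with a maximum of 3241 TPM. Crybb1 passed in 21 cells, Cryba2 in 12 and Cryba4 in 6.

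Among the γ-crystallins, which mark fibre cells, Cryge passed in 15 cells and Crygs in 12. The remaining members, Cryga, Crygb, Crygc and Crygd, passed in 1 or 2 cells each, and Crygf was at 0 throughout. The γ-crystallin genes are close copies of each other, so the split of short reads between Cryge and its neighbours is uncertain. The number of crystallins per cell was graded rather than split into classes. It was 2 in 8 cells, 3 in 10, 4 in 9, 5 in 9, 6 in 9, and 7 to 12 in the other 9. Crystallins together made up 0.0128% to 6.40% of all transcripts in a cell, with a median of 0.632%, and reached 1% in 20 cells. The plot of levels by gene shows this spread beside that of the neural and mesenchymal genes.

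**Figure D1:**
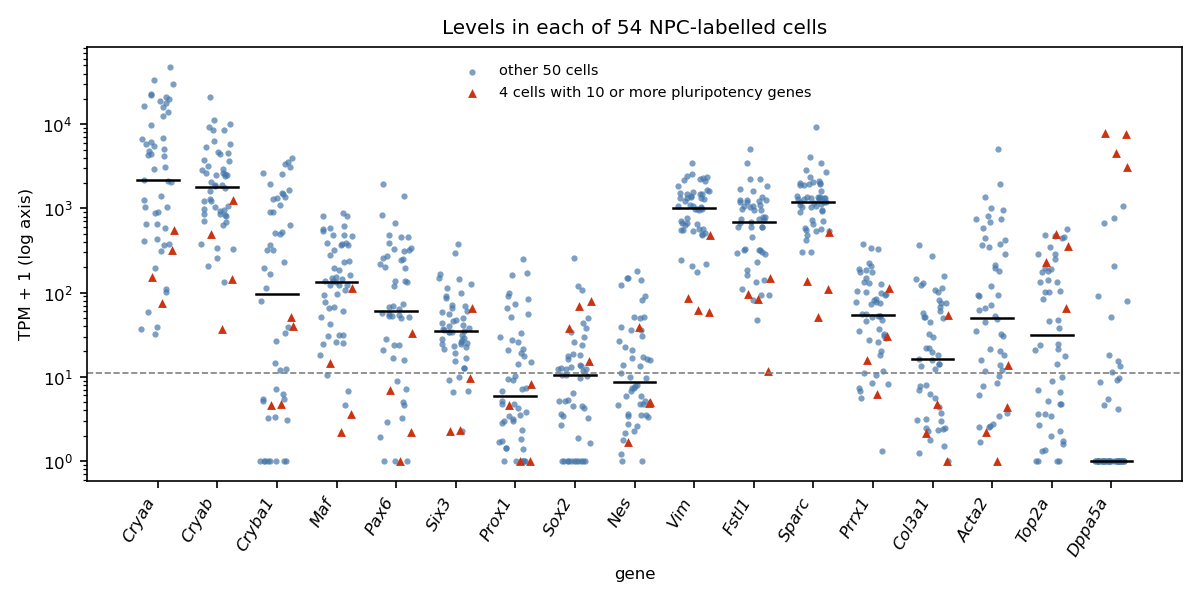
Level of 17 genes in each of the 54 NPC-labelled cells, as TPM + 1 on a log axis. Points are single cells, triangles the 4 cells with 10 or more pluripotency genes, black bars the median of all 54, and the dashed line a TPM of 10. Cryaa, Cryab, Vim, Fstl1 and Sparc lie above the line in all 54 cells, whereas Cryba1, Prox1, Sox2, Nes, Col3a1 and Top2a lie on both sides of it.

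Maf, Pax6, Six3 and Prox1 are transcription factors of lens development. Maf ran from 1.2 through a median of 134 to 884 TPM and passed in 49 cells (90.7%, 79.7 to 96.9%). Pax6 passed in 41 cells, with a median of 59.5 and a maximum of 1952 TPM. Six3 passed in 46 cells and reached 376.5 TPM. Prox1 passed in 20 cells and Pitx3 in 8. Maf and Pax6 were seen together in 38 cells, Pax6 without Maf in 3, and Maf without Pax6 in 11. Fibre cell genes were present in a minority of cells each: the filament gene Bfsp2 in 17, the water channel Mip in 14, Lim2 in 12, the connexin Gja3 in 7 and Grifin in 6. Bfsp1, the partner filament of Bfsp2, did not pass 1.48 TPM in any cell. At least 1 of the 7 fibre genes scored was seen in 34 cells and at least 3 in 11, and of the 22 cells with a γ-crystallin, 19 also had a fibre gene.

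The crystallin score of a cell, the mean log2(TPM + 1) of the measured crystallins, followed the score of the lens regulators and fibre genes, with a Spearman rho of 0.79 over 54 cells and 0.79 over the other 50. Single regulators differed in how they followed it. Maf had a rho of 0.54 and Prox1 of 0.53 with the crystallin score (0.49 and 0.51 over 50 cells), whereas Pax6 had 0.23 and Six3 had 0.11 (0.12 and 0.026). Of all 8768 genes ranked outside the list, those with the highest rho were Capn3 (0.70), a calpain protease with lens forms, the lipoxygenase Alox12 (0.67), Igsf5 (0.64), AK083547 (0.63) and Aldh1a1 (0.61), which makes retinoic acid and is abundant in lens. Lim2 (0.61) and Mboat1 (0.60) were also among the highest 8. The lowest were Sdc4 and Mt1 (both -0.53), Cdc42ep5 (-0.51) and Xrn2 (-0.46). All cells were counted as 1 sample, and the crystallin score had a rho of 0.22 with genes detected.

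Among the 9 crystallins present in at least 5 cells, 32 of 36 pairs had a rho over 0, with a median of 0.42 and a range from -0.14 to 0.72. The lowest values were those of Cryba4. The start of 3 crystallin genes is shown for the half-site TGCTGA (or its reverse complement TCAGCA), the core that Maf proteins are known to bind. The stretches are the 250 bases before the RefSeq start in build GRCm38.p6, 5′ to 3′ on the gene's own strand, with the half-site in capitals. Cryaa lies at chr17:31677681-31677930 on the plus strand, Cryba1 at chr11:77725294-77725543 on the minus strand and Crybb3 at chr5:113081585-113081834 on the minus strand.
Cryaa: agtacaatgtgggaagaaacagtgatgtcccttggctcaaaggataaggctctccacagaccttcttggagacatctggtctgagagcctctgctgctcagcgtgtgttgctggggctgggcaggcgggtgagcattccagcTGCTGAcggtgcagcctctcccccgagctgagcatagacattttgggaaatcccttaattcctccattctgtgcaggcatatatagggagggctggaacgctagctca
Cryba1: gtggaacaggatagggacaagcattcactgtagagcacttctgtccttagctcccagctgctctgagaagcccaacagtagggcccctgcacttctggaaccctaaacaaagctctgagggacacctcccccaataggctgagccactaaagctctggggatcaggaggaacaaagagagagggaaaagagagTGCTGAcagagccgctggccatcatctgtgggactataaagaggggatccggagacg
Crybb3: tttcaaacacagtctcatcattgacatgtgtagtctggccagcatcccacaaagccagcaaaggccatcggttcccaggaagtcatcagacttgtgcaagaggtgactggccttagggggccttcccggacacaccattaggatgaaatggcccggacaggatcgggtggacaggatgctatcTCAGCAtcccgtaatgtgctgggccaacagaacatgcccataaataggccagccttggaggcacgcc
The half-site began 108 bases before the start in Cryaa, 57 in Cryba1 and 67 in Crybb3. It was found on either strand in 10 of the 15 crystallin promoters with a sequence (66.7%), against 16.1% of 32536 promoters of the same length. The 3 shown were picked from those with a match. Cryba2, Crybb1 and Crygs also had 1 match each. Cryge, which passed in 15 cells, had none, and Cryba4, which passed in 6, had 3. Cryga and Crygc had 1 match each but passed in only 1 and 2 cells. A relation of matches to levels was not tested. A match describes the letters only and is not a bound site.

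Among neural precursor genes, the broadly shared members were those also found outside the nervous system. Vim ran from 58.2 through a median of 1020 to 3463 TPM. Msi2, an RNA-binding protein of stem cells, passed in 50 cells, the Notch target Hes1 in 49, Sox11 in 45 and Sox9 in 37. Nes, the filament that gives these cells their label, had a median of 7.75 and a maximum of 180.5 TPM. Sox2, a factor of neural and embryonic stem cells, passed in 26 cells (48.1%, 34.3 to 62.2%). Nes and Sox2 were seen together in 12 cells, 13 had only Nes, 14 only Sox2 and 15 neither.

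Other genes tied more closely to the nervous system were mostly rare. The exceptions were Six3 of the regional list (46 cells) and Pax6 of the neural precursor list (41 cells), which act in the lens as well. Sox1, which is also a lens fibre factor, passed in 9 cells, Hes5 in 6, Msi1 in 1, and the proteoglycan Ncan and the phosphatase Ptprz1 in none. Of the regional factors, Emx2, which acts in the forebrain, passed in 3 cells and the homeobox gene Meis1 in 25. The astrocyte gene Gfap and Dlx1 of interneurons were at 0 in every cell, and Dcx of migrating neurons did not pass 4.66 TPM. Of 54 cells, 6 carried at least 3 neuron genes, led by the adhesion gene Ncam1 (45 cells), Tubb3, Gap43 and Stmn2. The highest Tubb3 (743.6 TPM) and Stmn2 (664.9 TPM) were in the pluripotency-gene cells E3 and D11. At least 3 glial genes were carried by 11 cells, mostly through Tnc (37 cells), Aldoc (24) and Glul (23), which other cell types use as well.

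The neural precursor score had a rho of 0.44 with the crystallin score over 54 cells and 0.34 over the other 50. It had a rho of 0.55 with the lens regulator score (0.49 over 50), and of 0.40 once Pax6 and Sox1, which stand in both lists, were left out. The neural and lens scores thus ran in the same direction over cells. Outside the list, the genes with the highest rho to the neural score among 8762 were the lipid receptor gene S1pr3 (0.58), Fosb (0.56), Crim1 (0.56), Fgd4 and Sdc1 (both 0.55), Efnb2 (0.53), and Kcnq1ot1 and Tsc22d1 (both 0.52). The lowest were Cirh1a (-0.62), Adi1 (-0.55), Nhp2 (-0.53) and Mt1 (-0.50).

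Every NPC-labelled cell carried between 8 and 24 of the 40 measured mesenchymal genes, with a median of 15. On the mESC plates the range was 2 to 9 with medians of 5 or 6, so at least 3 such genes were also found in 87 of 90, 93 of 93, 94 of 94 and 84 of 84 mESCs. Fstl1, a secreted follistatin-like protein, ran from 10.7 through a median of 684 to 5067 TPM. Sparc, a matricellular protein, ran from 49.7 through 1197 to 9347 TPM, with its maximum in well D3. S100a6 and Lgals1 also passed in all 54 cells, fibronectin (Fn1) in 53, Thbs1 in 48, the limb and craniofacial mesenchyme factor Prrx1 in 46 (85.2%, 72.9 to 93.4%) and the cadherin Cdh11 in 39. Fibroblast collagens were uneven: Col3a1 passed in 32 cells, Col5a1 in 20, Col1a1 in 5 and Col1a2 in 1. Twist1 passed in 20 cells and Pax6 was present in 16 of these. Prrx1 and Cryba1 were seen together in 34 of the 36 cells with Cryba1. Prrx1 and Pax6 shared 36 cells.

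Actin and contractile genes followed the mesenchymal genes. Tpm1, Cald1 and Flna passed in all 54 cells. Acta2, smooth muscle actin, passed in 40 cells with a median of 49.4 and a maximum of 5096 TPM, and Tagln in 24. The actin score had a rho of 0.59 with the mesenchymal score over 54 cells and 0.51 over 50. Basement membrane genes were likewise broad, with Itgb1 in 54 cells, Col4a2 in 53 and Col4a1 and Nid1 in 52 each. Neural crest genes reached 3 in 25 cells through Sox9 (37 cells), Crabp1 (31), Msx1 (27) and Twist1 (20), while Pax3, Ngfr and Erbb3 passed in none.

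Outside its list, the mesenchymal score had its highest rho among 8746 genes with Inhbb (0.73), an activin subunit, followed by Itm2b (0.66), Runx1 (0.64), Mir1903 (0.64), the TGF-β receptor gene Tgfbr2 (0.63), Slc6a6, Malat1 and Ptprn (each 0.61). The lowest were Hmgb2 (-0.66), Cdca8 (-0.63) and Nasp (-0.61), of which Cdca8 and Nasp belong to the cell cycle lists. Spp1, the secreted phosphoprotein osteopontin, passed in all 54 cells but ran from 11.3 through 479.9 to 52835 TPM. Its rho was 0.48 with the mesenchymal score, -0.48 with the G2/M score and -0.34 with the crystallin score. Nupr1, a stress-response gene, passed in 39 cells, with a rho of 0.56 with the mesenchymal score and -0.45 with the G2/M score.

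Markers of other cell types were scarce. No cell carried 3 retinal and pigment, endothelial, blood or muscle genes, though only 3 blood and 7 endothelial genes were measured. The endothelial Tek passed in 14 cells and Flt1 in 4, the blood gene Cd68 in 4, and the muscle genes Tnnt1 in 7 and Tnnt2 in 3. Of the pigment genes, Tyr passed in 28 cells with a median of 10.1 TPM, but it was also at a median of 451.7 and 461.9 TPM on the serum mESC plates. At least 3 epithelial genes were carried by 3 cells, of which 2 belong to the 4 pluripotency-gene cells and the other is well D3. Well D3 was also the only cell with 3 or more endoderm genes, with Gata4 at 173.5, Gata6 at 282.7 and Dab2 at 707.9 TPM. It carried 5 pluripotency genes, with Dppa5a at 768.4 TPM.

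Proliferation genes were present in most cells and graded. Between 4 and 40 of the 47 genes of G1/S, which copy DNA, passed per cell, with a median of 14.5. Between 6 and 50 of the 52 genes of G2/M, which run mitosis, passed, with a median of 20. Pcna, the replication clamp, passed in 42 cells, the topoisomerase Top2a in 33, Cdk1 in 30 and Mki67 in 28. At least 10 G1/S genes were carried by 36 cells (66.7%, 52.5 to 78.9%) and at least 10 G2/M genes by 47 (87.04%, 75.1 to 94.6%), with 34 cells carrying both. Inhibitors of the cycle were present too. Btg1 passed in all 54 cells, with a median of 362.6 TPM, and Cdkn1a, the p21 inhibitor, passed in 49, of which 28 also had Top2a.

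A cell was counted as carrying a programme with at least 3 genes of a lineage list, or at least 10 genes of either cell cycle list, at a TPM of 10. The neural and mesenchymal programmes were then carried by all 54 cells, crystallins by 46 (85.2%, 72.9 to 93.4%) and a cell cycle programme by 49 (90.7%, 79.7 to 96.9%). Cryaa and Cryab passed in all 54 cells, so the crystallin line asked for only 1 further crystallin. By the same lines no serum mESC carried crystallins, 6 of 90 and 2 of 93 carried the neural programme, and all 183 the cell cycle. Crystallins were carried by 8 of 94 cells in 2i, and the neural programme by 73 of 94 cells in 2i and 77 of 84 Dgcr8 -/- cells. Of the 54 cells, 42 carried crystallins and cell cycle genes, 4 only crystallins, 7 only cell cycle genes and 1 neither. Since all 54 cells carried the neural and mesenchymal programmes, the 42 cells with both carried all of the programmes by construction. Without the 4 pluripotency-gene cells the count was 39 of 50. These counts depend on where the line is drawn, since 8 cells were 1 crystallin short of the line and 10 were exactly on it. With at least 5 lineage or 15 cell cycle genes, 27 cells carried crystallins, 40 the cell cycle and 22 all of the programmes.

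**Figure D2:**
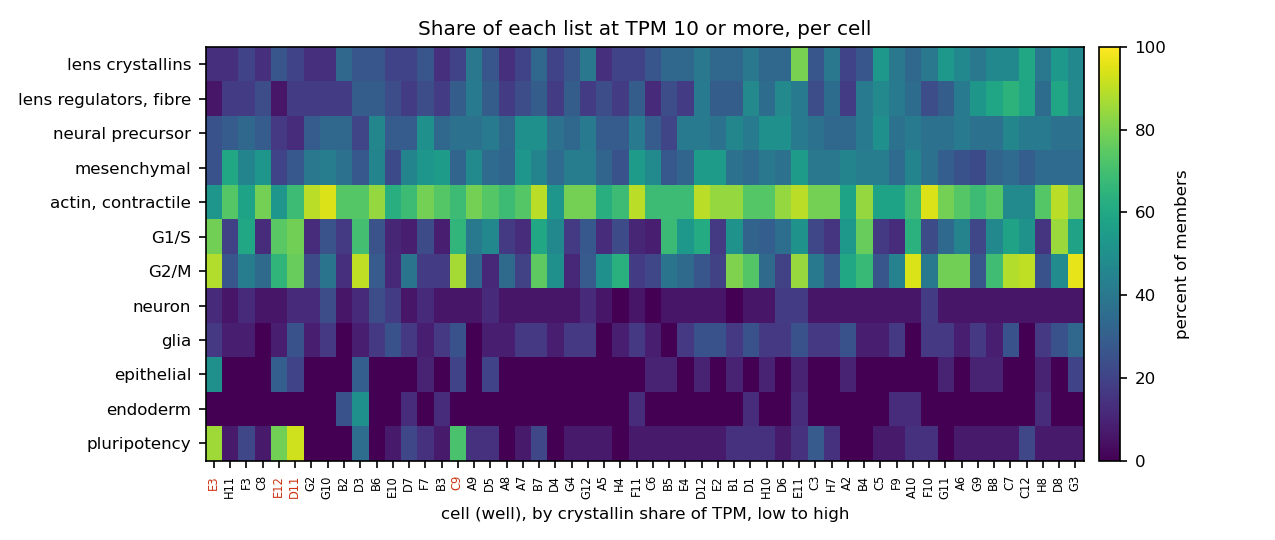
Percent of the measured members of each list at a TPM of 10 or more in each of the 54 NPC-labelled cells, with lists in rows and cells in columns, ordered from the lowest to the highest crystallin share of TPM. Most columns hold neural, crystallin, mesenchymal and cell cycle members at once, and the pluripotency row is strong in 4 columns.

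Genes of fibre cells were seen beside genes of mitosis. Of the 12 cells with Lim2, 11 had Top2a, while 22 of the 42 cells without Lim2 had it. Of the 14 cells with Mip, 10 had Top2a. Bfsp2 differed, with Top2a in 9 of its 17 cells. All 11 cells with at least 3 fibre genes carried at least 10 G2/M genes, beside 47 of all 54 cells. With 15 G2/M genes needed, these were 8 of 11 and 37 of 54.

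Over cells, the crystallin score had a rho of 0.33 with the G2/M score and 0.26 with the G1/S score. Without the 4 pluripotency-gene cells, which were high in cycle genes and low in crystallins, these were 0.48 and 0.43. Cryaa alone had a rho of 0.30 with the G2/M score, and 0.46 over the other 50. Pax6 ran the other way, with -0.40 and -0.35, and Maf had -0.04 and 0.06. The regulators of the lens list thus did not share a single relation to the cycle.

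The mesenchymal score ran against the cycle. Its rho was -0.59 with the G2/M score and -0.46 with the G1/S score over 54 cells, and -0.54 and -0.36 over the other 50. Centring each cell on its median weakened these to -0.24 and -0.17. The mesenchymal score had a rho of 0.42 with the score of cycle inhibitors (0.34 over 50). With the crystallin score it had a rho of -0.12 over 54 cells and -0.27 over 50, and the sign turned to 0.19 after centring. With the neural score the rho was 0.29, or 0.16 over 50 cells. This value depended strongly on the processing: it was 0.79 after centring, and 0.069 over 50 cells with an adjustment for genes detected.

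**Figure D3:**
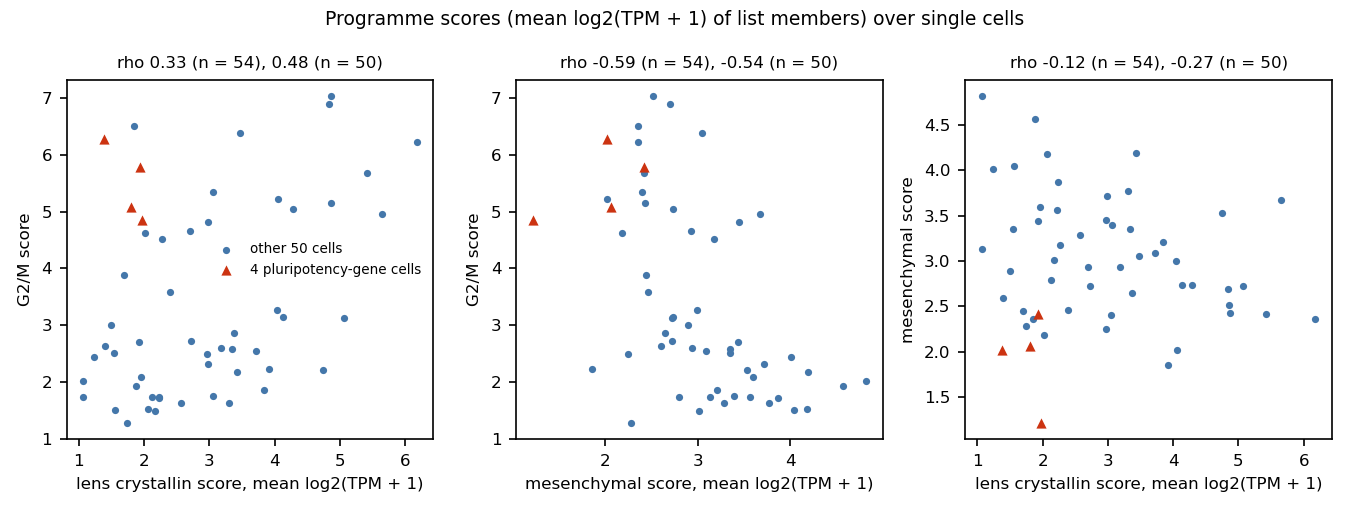
Programme scores, as mean log2(TPM + 1) of the measured list members, in the 54 NPC-labelled cells (triangles: the 4 pluripotency-gene cells), for G2/M against crystallins, G2/M against mesenchyme, and mesenchyme against crystallins. Spearman's rho is above each panel, and cells with a mesenchymal score over 4 all lie below 3 on the G2/M axis.

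Cytb, a mitochondrially encoded gene, ran against the cycle genes. It ranged from 2892 through 21223 to 66869 TPM over the 54 cells and had a rho of -0.41 with the G2/M score and -0.45 with the G1/S score (-0.33 and -0.35 over 50 cells). Its rho with the mesenchymal score was 0.33, and 0.21 over 50 cells. Its mean was 24386 TPM in these cells, against 974 to 3325 TPM on the mESC plates. Its part in the relations of the cycle genes was not tested.

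The 2 cycle scores had a rho of 0.69 with each other (0.66 over 50). Among 8724 genes outside the G2/M list, Hmgb2 (0.83), Depdc1a (0.77), Kif15 (0.76), H2afv (0.75), Mad2l1 (0.74), Nasp (0.71), Racgap1 and Kif4 (both 0.70) had the highest rho with the G2/M score, most of them genes of chromatin and the spindle. The lowest were the receptor genes Axl (-0.60) and Tgfbr2 (-0.58), then Dst and Inhbb (both -0.55). With the G1/S score the highest were Ttk (0.73), Tuba1b (0.71), Hmgb2 (0.68), Lig1, Ezh2 and Smc3 (each 0.67), and Ncapg2 and Top2a (both 0.66), and the lowest were Dst (-0.60), Slc6a6, Samd4 and Inhbb (each -0.57).

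Single wells show how the programmes combined. Well G3 held the most Cryaa (48274 TPM), with Cryab at 10018 and Maf at 237.3 TPM, and carried 50 G2/M and 27 G1/S genes beside 9 neural and 14 mesenchymal genes. Well E11 carried 12 crystallins, 22 mesenchymal and 44 G2/M genes, and had the most genes detected (9662). Well H11 had only 2 crystallins and Cryaa at 37.5 TPM, with 24 mesenchymal and 14 G2/M genes, Spp1 at 52835 TPM and the matrix inhibitor of mineralisation Mgp at 10568 TPM. Well G2 resembled it in Spp1 (51535 TPM) and crystallins (2), with Pax6 at 194.3 TPM.

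Cryba1, Spp1 and Cryaa varied most between cells for their mean level. Excess variability was the SD of log2(TPM + 1) minus the median SD of neighbouring genes when ranked by mean. Among 8776 genes it was 2.08 for Cryba1, 1.84 for Spp1 and 1.76 for Cryaa. Dppa5a (1.64) ranked 6th of all 54 cells and fell to rank 390 without the 4 pluripotency-gene cells, at 0.75. Nupr1 (1.56), Clu (1.37), Ifitm3 and Emp3 (both 1.32) were also among the leading 20. The remaining genes of these were Dynlt1b, Slc25a5, Tpt1p, Dynlt1a, AK220016, Ndufb9, Ndufs8, AK213775, Golt1b, Apeg3, Psenen and Mrpl20. The values of Dynlt1a, Dynlt1b, Slc25a5 and Tpt1p are uncertain, since near-identical copies can split short reads.

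The NPC values were set beside serum mESCs without a test, because the tables were normalised apart and the NPC-labelled cells count as 1 sample. The genes compared were those in both tables with a mean of at least 1 TPM in the NPC-labelled cells or on the serum plates. A list member at 0 in serum mESCs was thus compared only through its NPC level. A gene was called different when its mean log2(TPM + 1) lay at least 2 (4-fold) from the mean of the serum plates. Of 12756 genes, 1343 (10.5%) were higher and 1024 (8.03%) lower by this rule, and the median gene differed by 0.32. With means of TPM in place of means of logs, 5189 were higher and 567 lower. The largest differences upward on the log2(TPM + 1) scale were Cryaa (9.76), Cryab (9.49), Anxa2 (8.05), D0H4S114 (7.97), Fstl1 (7.64), Fos (7.61) and Vim (7.58). Downward they were Dppa5a (-10.27), BC028528 (-8.35), Ifitm1 (-8.31), Gm5531 (-8.10) and Nanog (-7.82).

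Against that background, 7 of 12 crystallins, 11 of 19 neural precursor, 19 of 35 mesenchymal, 12 of 18 actin and 12 of 20 basement membrane genes were higher, and of these lists only Fn1 (-2.89) was lower. The members compared were 12 of 15 measured crystallins, 19 of 24 neural precursor and 35 of 40 mesenchymal genes. For these lists the shares of all measured members are therefore lower. Of the lens regulators and fibre genes, 6 of 16 were higher, among them Maf (6.74), Pax6 (5.38) and Six3 (5.05), and the small heat shock gene Hspb1 was lower (-5.24). Nes was higher by 3.21, whereas Sox2, which mESCs also use, differed by 0.11. Of the pluripotency genes 11 of 14 were lower and Klf4 was higher (2.11). Of the G1/S genes 23 of 47 were lower and none higher. Of the G2/M genes 6 of 52 were lower and Mki67 was higher (2.04). The cell cycle counts did not hold with log2 of mean TPM, where the median gene differed by 1.65: 4 of 47 G1/S genes were then lower and 1 higher, and 6 of 52 G2/M genes were higher and none lower. Mcm5, a replication helicase subunit, had a mean of 79.7 TPM in NPC-labelled cells and of 77.4 and 62.6 TPM on the serum plates. With log2 of mean TPM the background was also wider, with 5189 of all 12756 genes higher and 567 lower. Beside that, 10 of 12 crystallins, 14 of 19 neural precursor and 28 of 35 mesenchymal genes were higher, and 5 of 14 pluripotency genes were lower.

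Among signalling and growth lists, 10 of 17 cycle inhibitors were higher, with Btg1 at 6.99 and Cdkn1a at 5.35, and none was lower. Of the Notch genes 5 of 9 were higher, with the ligand Jag1 at 5.87 and its target Hes1 at 5.00. Of the FGF and ERK genes 9 of 17 were higher and 1 lower, and of the BMP and TGF-β genes 5 of 17 were higher. Of the immediate early and heat shock genes, which respond to dissociation, 8 of 16 were higher and 1 lower. The immediate early genes Fos (7.61), Egr1 (7.09) and Jun (4.56) were higher, with Fos at a median of 401.5 TPM in NPC-labelled cells. The heat shock genes Hspa1b (0.75), Dnajb1 (0.59), Hspa8 (-0.71) and Hsp90aa1 (-1.63) passed in neither direction, and Hspb1 was lower (-5.24). Of the cyclin D and growth genes 1 of 8 was higher and 1 lower. Fewer genes of other lists could be compared: 4 of 9 neural crest, 2 of 10 regional, 2 of 4 glial and 1 of 5 neuron genes were higher, and 2 neuron, 3 of 10 epithelial, 2 of 5 muscle and 1 of 4 retinal genes were lower. None of 4 endothelial, 4 endoderm and 1 blood genes passed in either direction. With log2 of mean TPM, 5189 of all 12756 genes were higher and 567 lower. Beside that, 2 of 4 endothelial and 3 of 4 endoderm genes were higher. Of 10 regional factors 6 were higher and 2 lower, and of 10 epithelial genes 6 were lower.

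**Figure D4:**
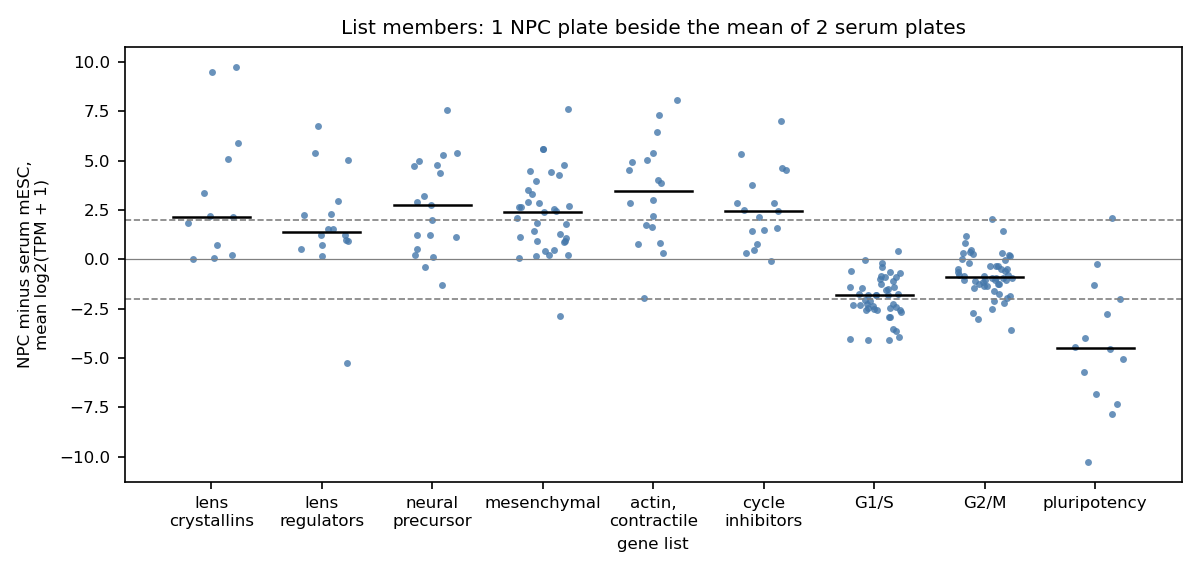
Difference of mean log2(TPM + 1) between the 54 NPC-labelled cells and the mean of the serum mESC plates for each compared gene of the named lists, as points, with black bars at the median of each list and dashed lines at 2 and -2. Crystallin, neural, mesenchymal and actin genes lie mostly above 0, pluripotency genes mostly below it on this scale.

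The marks at these genes were known only in mESCs. In serum mESCs, H3K27me3, the Polycomb mark of silent developmental genes, was given as a ChIP-seq read count over a window of 1000 bases per gene in build mm9. A window was called when its count lay above the 90th percentile of all 23167, which held for 9.97%. It held for 22 of 24 regional factors, 12 of 16 neural crest, 10 of 26 neural precursor, 9 of 21 lens regulator and 13 of 41 mesenchymal genes, but 1 of 16 crystallins. No G1/S or G2/M gene was called.

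Among the transcription factors found in these cells, some windows were high in this mark and others were not. Maf (246 reads, chr8:118230294-118231294) lay at percentile 99.4, Pax6 (178 reads) at 97.7, Prrx1 (174 reads) at 97.5 and Six3 (147 reads) at 96.2. Sox11 (37 reads) lay at 77.4, and Sox2 and Hes1 (14 reads each) at 28.3. Nes (146 reads) and Vim (113 reads) lay at 96.1 and 93.6. The median window held 20 reads. Cryaa (70 reads, chr17:31814389-31815389) lay below the line, at percentile 88.3, and its H3K4me3, a mark of active starts, was 18 reads, at percentile 34.4 of a distribution with a median of 273. Cryba1 (18 reads) was at percentile 42.7 for H3K27me3. The crystallin called was Cryba2 (208 reads). Each mark came from 1 library with no replicate check.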

How the data were processed

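RNA was measured in 54 NPC-labelled cells and 361 mESCs by SMART-Seq on C1 chips with paired 25 bp reads, per the labels' protocols, which also state that chambers were inspected optically for a cell. The authors deposited single-cell values as the natural log of TPM + 1 (from the values and file headers). Bowtie, RSEM and build mm9 are named per the submitters' processing notes, with no role or version. The deposited ChIP-seq values are read counts per 1000-base window, of which the serum H3K27me3, H3K4me3 and input columns were used. Where each window lies around its gene is not stated in the labels or headers. The bulk table was not used here.

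Logs were turned back to TPM, with vanishingly small estimates set to 0. Spreadsheet dates in place of names (25 of 18873 NPC names and 51 of 22443 mESC names) were dropped, and names with identical values were counted once in comparisons. TPM keeps no depth, so its error per cell is unknown. Scores are means of log2(TPM + 1), a pseudocount of 1. The 25 gene lists, which cover neural, lens, mesenchymal, other lineage, cell cycle and signalling genes, and the members were chosen with earlier results of these data known. Named genes were the 5 given markers, the highest and most variable members of each list, the 20 most variable genes for their mean (mean TPM of at least 5, TPM of 10 in at least 5 cells, running median over 201 genes), the 8 genes with the highest and 4 with the lowest rho for each score, and the 10 largest differences from serum each way. Other names are list members chosen after their values were seen, and a few genes that the rule or lists include are not reported here. Promoter sequences came from RefSeq (GRCm38.p6), with 15 of 16 crystallins matched. Alternatives changed the TPM line, the members needed, the pseudocount, the centring and the cells kept. In simulated data the scripts recovered the mean excess SD put into genes of high mean. The simulation used the same noise for every gene and no dropout, so it does not cover genes with many cells at 0. Python 3.11.15, numpy 2.4.6, pandas 2.3.3, scipy 1.17.1 and matplotlib 3.10.9 were used.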

Additional observations from a re-analysis of the deposited data

Results flagged for a closer look

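Cryaa was seen outside the NPC-labelled cells, on 1 of the 4 mESC plates. On the second serum plate it passed a TPM of 10 in 21 of 93 cells and was over 0 in 67, with a maximum of 60.3 and a mean of 7.01 TPM, which is 0.099% of its NPC mean of 7078 TPM. On the first serum plate it was over 0 in 1 of 90 cells, and on the 2i and Dgcr8 -/- plates it was at 0 in all cells. This was looked at because the plate is outside the NPC measurement and the gene is the one with the largest difference from serum. Of 12 genes with an NPC mean of at least 100 TPM and a mean of at most 0.1 TPM on every other mESC plate, 3 were over 0 on this plate: Cryaa, Cryba1 (17 cells, mean 0.91 TPM, 0.133% of the NPC mean) and Ptn (11 cells, mean 0.48 TPM, 0.281%). The other 9, among them Maf at an NPC mean of 221.2 TPM, Mgp at 212.5 TPM and Crybb1 at 105.5 TPM, were at 0 in all 93 cells. The source of these transcripts was not tested.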

How the results depend on the processing

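Of 167 recomputed values of 24 results, 122 moved little (rhos by at most 0.15, counts of genes by at most 1.5 times, counts and shares of cells within their interval), 43 moved further and 2 turned sign; the cause was not tested. With a TPM of 1 as the line, crystallins were carried by 53 cells, the cell cycle by 54, neural genes with crystallins, crystallins with mesenchymal genes and crystallins with the cell cycle by 53 each, and mesenchymal with cell cycle genes by 54. With a TPM of 30 the cell cycle was carried by 40 cells, also together with mesenchymal genes (40), neural genes with crystallins by 39 and crystallins with the cell cycle by 32. With 5 (or 15) members needed, crystallins were carried by 27 cells, with neural or with mesenchymal genes also by 27, the cell cycle by 40, with mesenchymal genes by 40, and crystallins with the cell cycle by 22. With 2 (or 5) members, each of these 6 counts was 54. Nes was counted in 90.7% of cells at a TPM of 1 and 25.9% at 30, and Maf in 100% and 77.8%. Centring each cell on its median turned the rho of crystallins and mesenchymal genes to 0.19 and that of neural and G2/M genes, -0.19 as reported, to 0.12. It also gave -0.17 for mesenchymal and G1/S, -0.24 for mesenchymal and G2/M, and 0.79 for neural and mesenchymal genes. Counting members in place of scores gave -0.40 for mesenchymal and G2/M and -0.039 for neural and G2/M genes. Without the 4 pluripotency-gene cells, a choice made after seeing the data, crystallins had 0.43 with G1/S and -0.27 with mesenchymal genes. Adding an adjustment for genes detected gave -0.43 for crystallins and mesenchymal genes, 0.28 for neural genes and crystallins and 0.069 for neural and mesenchymal genes. Against serum, the 1343 genes higher and 1024 lower became 5189 and 567 with log2 of mean TPM, 326 and 367 with a pseudocount of 10, and 517 and 2489 with the 2i plate in place of serum. Of the 20 most variable genes, 11 were shared with a pseudocount of 10. Detection of a gene in a cell is limited by depth, which TPM does not keep, so a 0 is not shown to be absence. No paired analysis was possible because the NPC-labelled cells count as 1 sample and no result comes from a test.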
